A study of Mus musculus with 18 samples.

Results

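Malat1 and Neat1 are 2 of the 39179 genes counted in 18 RNA-seq libraries of MC38 cells, a mouse colon adenocarcinoma line of C57BL6 origin. They were chosen by name, with their levels in these libraries already known, so their levels, differences and correlations are descriptions and carry no test. The libraries formed 6 groups of 3. APC-deleted cells (APC-KO, titled MC38APC) were grown with no doxycycline, or with 1 µM doxycycline for 24 h or 48 h to induce a hairpin against Tdo2, the tryptophan-degrading enzyme. APC-intact cells (APC-WT) were grown in the same 3 ways. Only treated libraries carry the hairpin in their titles, while the protocol speaks of hairpin cells with and without doxycycline. The hairpin, the drug and any difference between the parent and hairpin cells therefore cannot be told apart. Each line is described as an isogenic derivative, with no statement of whether it is 1 clone. The labels call the samples of a group biological triplicates, but do not say how the cultures were separated, so errors measure the spread between these samples.

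Malat1 is a long, mostly unspliced RNA that stays in the nucleus and gathers at nuclear speckles, the domains that store splicing factors. Its end is not made by ordinary polyadenylation: RNase P cuts ahead of a tRNA-like RNA, and a triple helix protects the end that is left. Neat1, its neighbour, scaffolds paraspeckles, nuclear bodies that hold DBHS-family proteins such as NONO, SFPQ and PSPC1. A short polyadenylated Neat1 isoform and a long one share their start, and the long one, which ends in a triple helix like that of Malat1, is the isoform that builds paraspeckles.

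In the deposited annotation Malat1 (ENSMUSG00000092341) lay at chr19:5795690-5802672 and Neat1 (ENSMUSG00000092274) at chr19:5824708-5845478, both on the minus strand of mm10, with 22.035 kb between them. Both were typed as lincRNA. The deposited exon length was 6982 bases for Malat1 and 20770 bases for Neat1, the length of the long isoform. The stretches shown here, from GENCODE M21 on GRCm38 and written 5′ to 3′ in DNA letters, are shown because they set the RNAs' ends and hence which reads a gene count can gather. In the first and second lines the capitals mark, in order, a U-rich motif, another U-rich motif and the A-rich tract that forms the triple helix with them. In the last line they mark the polyadenylation signal of the short Neat1 isoform.

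Malat1 end (chr19:5795982-5796075, minus strand): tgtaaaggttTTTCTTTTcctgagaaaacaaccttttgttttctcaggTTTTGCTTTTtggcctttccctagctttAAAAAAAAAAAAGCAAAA

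Neat1 long isoform end (chr19:5824708-5824807, minus strand): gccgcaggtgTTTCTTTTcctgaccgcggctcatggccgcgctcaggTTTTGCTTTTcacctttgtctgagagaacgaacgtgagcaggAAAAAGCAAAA

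Neat1 short isoform end (chr19:5842307-5842366, minus strand): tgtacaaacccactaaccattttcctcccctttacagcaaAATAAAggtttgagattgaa

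Both U-rich motifs were identical letter for letter at the ends of Malat1 and of long Neat1, and the A-rich tract was longer in Malat1. The annotated Malat1 transcript ran on for 292 bases past the stretch shown, whereas the annotated Neat1 transcript ended with it. A count per gene cannot separate the long from the short Neat1 isoform, nor cut from uncut Malat1. The files also list 6 short or antisense entries in or beside the members (Gm20417, MALAT1, NEAT1_1, NEAT1_2, NEAT1_3 and mascRNA-menRNA), which had 0 counts in all 18 libraries. They covered 1074 bases of Malat1 and 384 bases of Neat1. Whether the counting used strand is not given in the sources used here, so sense and antisense reads at these places cannot be told apart.

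The Malat1 promoter, 250 bases before the start to 50 after it (RefSeq, GRCm38.p6, chr19:5802623-5802922, minus strand), is shown because Malat1 differed between groups. The capitals mark an ETS-type TTCCGG, 56 bases before the start, and an ACGTG, 43 bases before it.

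Malat1 promoter: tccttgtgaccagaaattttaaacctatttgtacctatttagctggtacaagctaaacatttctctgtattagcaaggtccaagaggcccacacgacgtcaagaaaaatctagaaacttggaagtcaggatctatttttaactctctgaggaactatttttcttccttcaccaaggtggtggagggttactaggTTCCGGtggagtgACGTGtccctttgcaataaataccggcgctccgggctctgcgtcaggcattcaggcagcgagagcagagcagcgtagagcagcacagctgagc

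TTCCGG was present, on either strand, in 14.9% of 32851 promoters of this length and ACGTG in 19.6%. The TATA-box letters TATAAA, searched for on both strands like every motif here, were not in this window. Neither were those of the GC box, GGGCGG, nor of the palindromic E-box, CACGTG, which would hold the ACGTG above. CCAAT, the CRE letters TGACGTCA, and motifs of the NRF1 and p53 types were likewise not in this window.

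The libraries held 71970499 to 111948430 counts in genes. A further 22.9 to 25.5% of each library's total named no gene, of which 4.70 to 7.01% of the total lay in no annotated feature (the no-feature share used throughout). Tdo2, the hairpin's target, had 6 to 29 counts per library and passed the test in none of 11 comparisons. Apc was lower in APC-deleted than in APC-intact cells, by a log2 difference of −0.57 ± 0.123 (SE) with no doxycycline, −0.60 ± 0.123 at 24 h and −0.73 ± 0.124 at 48 h (adjusted p = 0.00241, 0.00125 and 0.000223, edgeR). From the deposited file names the libraries were sequenced in 2 runs: run 1 held both untreated groups and APC-intact 24 h, and run 2 held the other treated groups. APC-deleted 48 h replicate 2 stood apart from its group, with a chi-square per degree of freedom over genes of 77.6 and 81.0 against its fellow replicates, against 14.9 between those. In APC-intact 24 h all 3 pairs were far apart, at 29.0 to 76.9, replicate 2 the farthest. Malat1 and Neat1 differences that rest on these libraries are also given without them. APC-deleted 48 h replicate 2 and APC-intact 24 h replicate 1, which had the most Malat1 of its group, were also left out together, a pair chosen with earlier results known. Of 10 colon epithelial markers, Cdx2 was at 0 in every library and 7 stayed below 1 CPM (counts scaled to library size). Their summed level was 5.20 to 7.18 CPM in APC-deleted and 3.14 to 5.37 CPM in APC-intact libraries. The remaining epithelial markers, Krt8, Lgals4 and Cdh1, reached 3.87, 3.51 and 1.89 CPM. A list of 9 fibroblast markers summed to 3438 to 4678 CPM in APC-deleted and 2752 to 3747 CPM in APC-intact libraries. Not all of these were present: Thy1 reached at most 0.0108 CPM and Lum at most 1.21 CPM. Fibroblast markers Col3a1 and Dcn fell in both lines at 48 h (log2 difference of Col3a1 −0.75 in the APC-deleted and −0.68 in the APC-intact line, and of Dcn −0.47 and −0.44), and their part in the results was not tested.

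Malat1 took 0.00641 to 0.0362% of a library's reads and Neat1 0.00175 to 0.00662%, with 7772 to 42662 and 2127 to 6764 counts. Both were thus counted precisely, and the replicate spread, not counting error, sets the precision of what follows. Averaged over the libraries, Malat1 stood at 202 CPM and Neat1 at 40.9 CPM. Among 1001 long noncoding genes tested, Malat1 ranked 5th by CPM and 16th per kilobase (29.0 CPM per kb), and Neat1 ranked 19th and 106th (1.97 CPM per kb). Per kilobase Malat1 exceeded Neat1 in all 18 libraries, by 6.41-fold in APC-deleted 48 h replicate 2 up to 32.2-fold in APC-intact 48 h replicate 1, with a median of 12.1-fold. Since the short isoform covers only the start of the deposited Neat1 length, the level per kilobase of Neat1 depends on the mix of isoforms.

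In APC-deleted cells Malat1 had 86.4, 111 and 191 CPM with no doxycycline, 132, 179 and 247 CPM at 24 h, and 125, 189 and 239 CPM at 48 h. The 3 groups overlapped throughout, and the highest library of each, untreated included, lay above the mean of every APC-deleted group. In APC-intact cells Malat1 had 84.9, 89.0 and 164 CPM with no doxycycline, 319, 102 and 238 CPM at 24 h, and 481, 335 and 330.2 CPM at 48 h. The 48 h libraries lay above every other library in the series, and the 24 h libraries spread over most of the range. Group means, from the lowest, ran from APC-intact untreated (113 ± 44.6 CPM, SD, n = 3) through APC-deleted untreated (129 ± 54.6), APC-deleted 48 h (184 ± 57.5), APC-deleted 24 h (186 ± 57.9) and APC-intact 24 h (219.6 ± 109) to APC-intact 48 h (382 ± 85.9). Only the last step in this order separated neighbouring groups without overlap.

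Neat1 in APC-deleted cells had 32.2, 28.6 and 45.1 CPM with no doxycycline, 41.0, 45.6 and 45.5 CPM at 24 h, and 38.4, 87.6 and 56.9 CPM at 48 h. The highest Neat1 library of the series was APC-deleted 48 h replicate 2, which stood apart from its group. In APC-intact cells Neat1 had 23.2, 26.4 and 33.1 CPM with no doxycycline, 37.0, 32.4 and 40.5 CPM at 24 h, and 44.5, 41.1 and 37.7 CPM at 48 h. Here every 48 h library lay above every untreated library, over a narrower range than for Malat1. The order of the group means was APC-intact untreated (27.6 ± 5.07 CPM), APC-deleted untreated (35.3 ± 8.67), APC-intact 24 h (36.6 ± 4.06), APC-intact 48 h (41.1 ± 3.40), APC-deleted 24 h (44.0 ± 2.59) and APC-deleted 48 h (61.0 ± 24.9), and each group overlapped its neighbour. Thus the group with the most Malat1 was not the group with the most Neat1: APC-intact 48 h led for Malat1 and APC-deleted 48 h for Neat1.

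**Figure D1:**
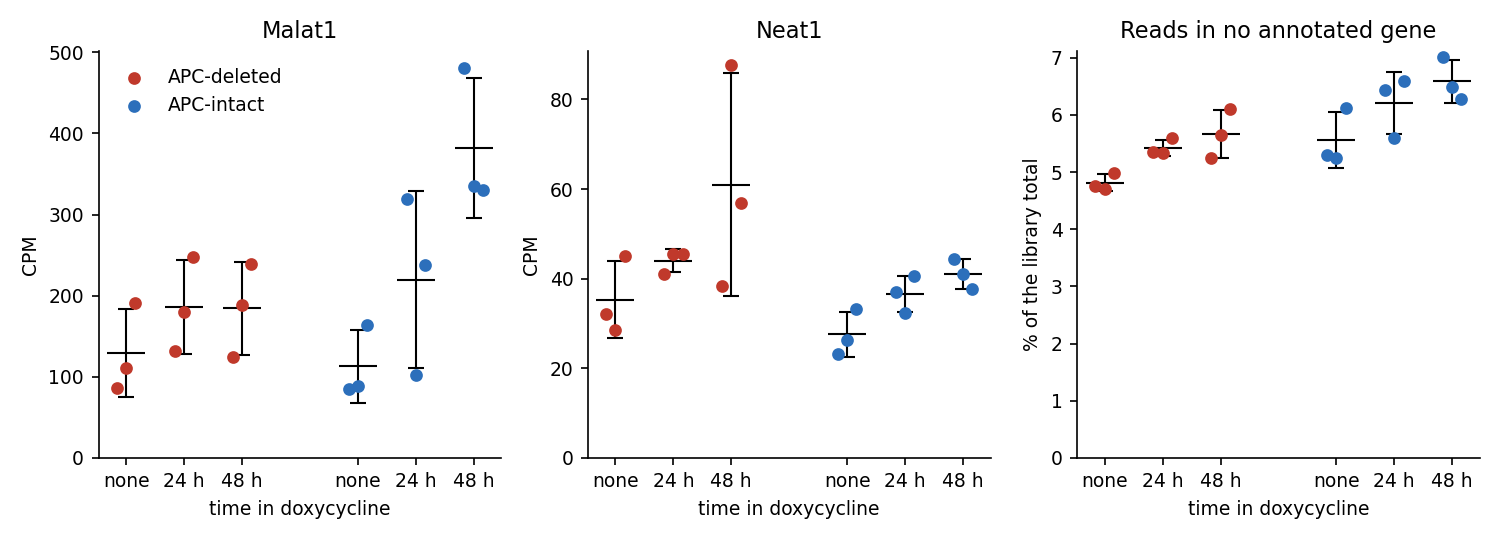
Malat1 and Neat1 levels (CPM) and the no-feature share (% of the library total) in each of the 18 libraries, by line and hours of doxycycline, with group mean and SD (n = 3). APC-intact 48 h libraries hold the most Malat1 (330.2 to 481 CPM), and APC-deleted 48 h replicate 2 the most Neat1 (87.6 CPM).

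In APC-deleted cells, where the runs differ, the 24 h differences from untreated cells were 0.53 ± 0.446 on the log2 scale (SE) for Malat1 and 0.32 ± 0.249 for Neat1, and the groups overlapped. In APC-intact cells 24 h of doxycycline could be set against none within run 1. Malat1 differed there by 0.96 ± 0.449, and the groups overlapped. The difference was 0.60 without APC-intact 24 h replicate 1, 1.30 without replicate 2 and 1.34 without APC-intact untreated replicate 3. Neat1 differed by 0.41 ± 0.251, also with overlap. At 24 h neither RNA was thus set apart from untreated cells by all of its replicates in either line.

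At 48 h the Malat1 difference from untreated cells was 0.51 ± 0.446 in APC-deleted cells, with overlap. In APC-intact cells Malat1 was 3.39-fold higher at 48 h than untreated (log2 difference 1.76 ± 0.457), with no overlap. A group wholly above its untreated group was common in that comparison, at 20.4% of all genes tested. The difference stayed between 1.56 and 2.13 as each library was left out in turn, but run and treatment coincide here. The run could be entered only in a fit additive in line, time and run, which leaves out the line-by-time interaction and gives both lines 1 shared effect of 48 h. That shared effect, 0.95 ± 0.740 for Malat1 and 0.88 ± 0.341 for Neat1, is not a value of either line, and how far it moved from them cannot be put down to the run alone. For Neat1 the 48 h difference was 0.79 ± 0.249 in APC-deleted cells, with overlap, and 0.43 without the high replicate 2. In APC-intact cells it was 0.57 ± 0.251, without overlap. From 24 h to 48 h, within run 2, the APC-deleted differences were −0.02 ± 0.444 for Malat1 and 0.47 ± 0.247 for Neat1, the second being 0.11 without that replicate. In APC-intact cells, across runs, the 48 h minus 24 h difference was 0.80 ± 0.446 for Malat1, without overlap (7.54% of genes had 48 h wholly above 24 h), and 0.16 ± 0.249 for Neat1. The Malat1 value was 1.17 without APC-intact 24 h replicate 1 and 0.46 without replicate 2.

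The lines could be compared within a run when untreated and at 48 h. Untreated APC-deleted cells differed from untreated APC-intact cells by 0.20 ± 0.446 in Malat1 and 0.35 ± 0.251 in Neat1, with overlap in both. The Malat1 value turned to −0.19 without APC-deleted untreated replicate 3. At 48 h Malat1 was lower in APC-deleted cells, at 0.483-fold of APC-intact (log2 difference −1.05 ± 0.448), without overlap, and 22.2% of all genes had every APC-deleted library below every APC-intact one. Over single left-out libraries this value kept between −1.28 and −0.83. Neat1 differed the other way at 48 h, by 0.57 ± 0.248 with overlap, and by 0.21 without APC-deleted 48 h replicate 2. At 24 h, where the lines were in different runs, the differences were −0.24 ± 0.444 for Malat1, which turned to 0.14 without APC-intact 24 h replicate 1 and was −0.58 without replicate 2, and 0.26 ± 0.249 for Neat1, without overlap (21.6% of genes were wholly above in APC-deleted cells).

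The difference between the lines' 48 h responses, in which the run cancels, was −1.25 ± 0.631 for Malat1 and 0.21 ± 0.352 for Neat1. The Malat1 value was −1.29 ± 0.677 without the pair of libraries named above and ran from −1.62 to −0.86 over single left-out libraries. The Neat1 value was −0.15 without APC-deleted 48 h replicate 2 alone, so its direction rests on that library. At 24 h the run does not cancel, since only the APC-deleted 24 h libraries were in another run than their untreated group. The difference of responses there was −0.43 ± 0.629 for Malat1 and −0.09 ± 0.353 for Neat1. Its error was larger than the difference itself for both. Without APC-intact 24 h replicate 1 or 2 the Malat1 value was −0.07 or −0.77.

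Replicates of a group disagreed in Malat1 far more than in most genes. The pooled within-group SD of log2 CPM was 0.559 for Malat1 and 0.313 for Neat1, against a median of 0.0844 over 9953 genes. Only 11 of these genes (0.111%) had a larger SD than Malat1 and 46 (0.462%) a larger SD than Neat1. In bulk RNA a library with less Malat1 may hold fewer cells with much of it or less of it per cell, which cannot be told apart.

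The no-feature share, reads that fall in no annotated exon, moved with Malat1. By group it was 4.70 to 4.99% in untreated, 5.33 to 5.59% in 24 h and 5.25 to 6.10% in 48 h APC-deleted libraries. In APC-intact libraries it was 5.25 to 6.12% untreated, 5.59 to 6.59% at 24 h and 6.27 to 7.01% at 48 h. The share was thus highest in the group with the most Malat1, and the same library was highest in both within 5 of 6 groups. The same library was lowest in both within 3 of 6 groups. The group with the least Malat1, APC-intact untreated, had a mean share of 5.56%. That lay above the means of APC-deleted untreated (4.81%) and APC-deleted 24 h (5.43%). Over the 18 libraries the log2 level of Malat1 and the share had a Pearson r of 0.82 (Spearman rho 0.78), 0.73 within run 1 and 0.94 within run 2. It was 0.78 in the APC-deleted and 0.95 in the APC-intact line, and 0.78 without the 2 libraries of most extreme share. After subtracting each group's mean from both measures r was 0.87 (rho 0.81), from 0.80 to 0.90 as libraries were left out. Only 5 of 9953 genes (0.0502%) had a higher r with the share on this scale, where the median gene had −0.07. In levels 133 genes (1.34%) had a higher r than Malat1, and the median gene had −0.08.

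Over the groups Neat1 had a lower r with the share than Malat1. Its r was 0.28 (rho 0.36) over the 18 libraries, where 3046 genes (30.6%) had a higher r. It was 0.37 within run 1 and −0.081 within run 2. Within a line it was 0.76 for APC-deleted and 0.95 for APC-intact cells. For deviations from the group means it was 0.57 (rho 0.74), and 667 genes (6.70%) had a higher r. Without APC-deleted 48 h replicate 2 it was 0.80, beside 0.87 for Malat1. Malat1 and Neat1 had an r of 0.52 (rho 0.63) in levels and 0.62 (rho 0.75) in deviations, the second being 0.79 without APC-deleted 48 h replicate 2 and 0.87 without the pair of libraries. In levels it was 0.77 within run 1 and −0.086 within run 2. The points of each correlation share their library, its depth and its run, and the part of the no-feature reads in the Malat1 and Neat1 values was not tested.

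**Figure D2:**
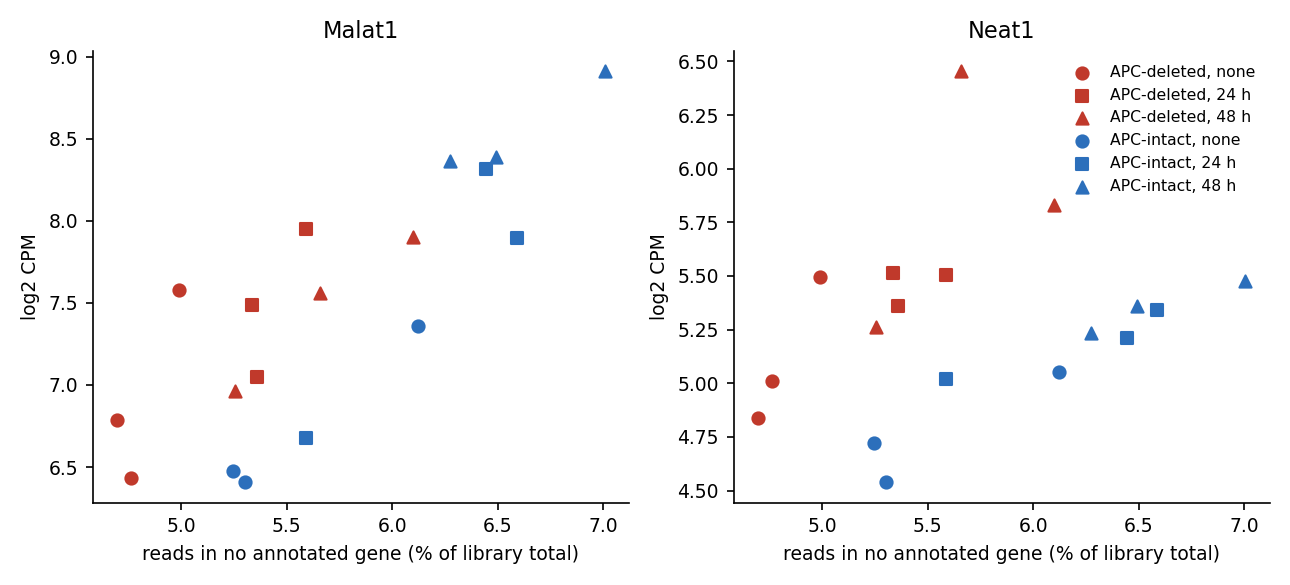
Log2 CPM of Malat1 and of Neat1 (vertical axes) against the no-feature share (% of the library total, horizontal axes), 1 point per library. Colour marks the line and marker shape the time in doxycycline. Malat1 climbs with the share (r = 0.82), while Neat1 does so within each line (r = 0.76 and 0.95) but less over all libraries (r = 0.28).

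Mitochondrial transcripts followed a different order from Malat1. Their share of gene counts was 0.194% ± 0.0628 untreated, 0.353% ± 0.105 at 24 h and 0.367% ± 0.0805 at 48 h in APC-deleted cells (SD, n = 3). In APC-intact cells, where Malat1 differed most, it was 0.264% ± 0.0276, 0.271% ± 0.0109 and 0.295% ± 0.0202. At 48 h 7 of 13 mitochondrial mRNAs rose in APC-deleted cells, where 4.52% of all genes tested rose and 6.49% fell, and 2 of 13 rose in APC-intact cells, where 3.81% rose and 7.54% fell. Their part in the Malat1 values was not tested.

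The genes whose pattern was most like that of a member were taken from 9586 genes with a mean of at least 5 CPM. For the level of Malat1 over 18 libraries they were Marf1 (r = 0.864), Nktr (0.842), Gnaq (0.837), Tet2 (0.824) and Ogt (0.817). Marf1 encodes a regulator of RNA in the germ line, Nktr a cyclophilin-related protein with an RS domain, Gnaq a G-protein alpha subunit, Tet2 a methylcytosine dioxygenase and Ogt the O-GlcNAc transferase. For deviations from the group means they included Prdm10 (0.903), Nktr (0.896), Eml5 (0.872) and Tnpo2 (0.862). Nktr was the gene named on both scales, at 111 ± 12.2, against 75.6 ± 3.59 CPM, in APC-deleted 48 h and untreated cells and 116 ± 11.7, against 87.5 ± 8.53 CPM, in the APC-intact groups. In level, r with the no-feature share was 0.84 for Marf1, 0.86 for Nktr, 0.75 for Gnaq, 0.62 for Tet2 and 0.89 for Ogt. These genes were chosen for likeness to Malat1, whose own r with the share was 0.82. Their r with the share is therefore not a separate result.

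For the level of Neat1 the closest genes were Paxbp1 (r = 0.942), Xrcc3 (0.938), Gcfc2 (0.934), Ccnl2 (0.924) and the long noncoding gene Fendrr (0.922). Paxbp1 and Gcfc2 are related proteins, and Gcfc2 and the cyclin Ccnl2 are linked to splicing. For deviations they were Sfrs18 (0.958), now named Pnisr, an RS-domain protein, then Leng8 (0.947), Zbtb40 (0.941), Slc9a5 (0.931) and Ankrd16 (0.928). Sfrs18 had 72.7, 132 and 87.4 CPM in APC-deleted 48 h replicates 1, 2 and 3, against 54.5, 52.3 and 68.4 CPM untreated, so it peaked in the same library as Neat1. Without the pair of libraries, which holds that one, r with Neat1 was 0.858 to 0.927 for the first 5 genes in level and 0.893 to 0.942 for these 5 in deviations. No gene was among the closest 5 to both members. Neat1 ranked 845th in level and 259th in deviations among the genes most like Malat1, and Malat1 ranked 687th and 424th for Neat1.

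**Figure D3:**
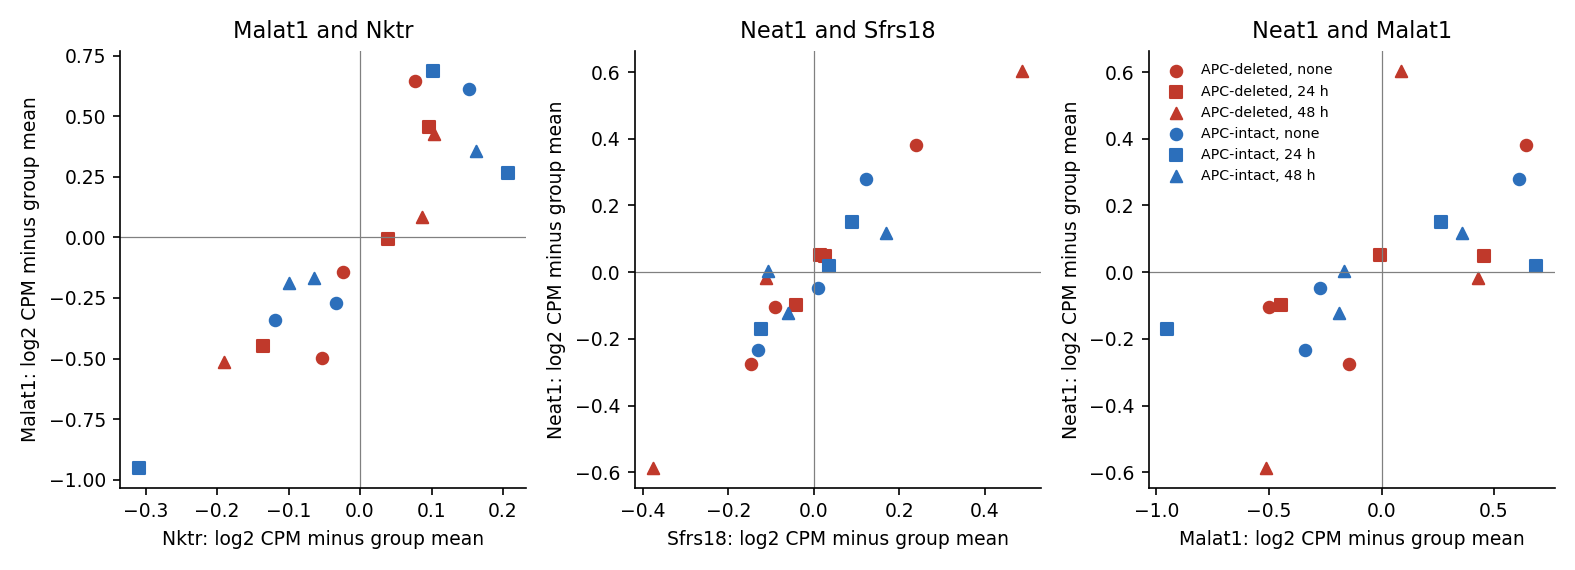
Deviation of each library from its group mean (log2 CPM) for Malat1 against Nktr, Neat1 against Sfrs18 and Neat1 against Malat1, 1 point per library. The first and second pairings lie close to a line (r = 0.896 and 0.958), and the members follow each other less closely (r = 0.62).

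Other nuclear RNAs were read beside Malat1 and Neat1 at 48 h. Of 11 tested messengers known in mouse cells to be held in the nucleus or to keep introns, 6 rose and 0 fell in APC-deleted cells, and 3 rose and 0 fell in APC-intact cells, beside the 4.52% and 3.81% of all genes that rose there. The list's median log2 difference was 0.41 in the APC-deleted and 0.28 in the APC-intact line, beside −0.00114 and 0.000496 over all genes tested, and 11 of 11 genes were above 0 in both lines. Ddx17, an RNA helicase, rose to 392.4 ± 18.7 CPM in APC-deleted 48 h cells, against 319.5 ± 6.13 CPM untreated (0.30 ± 0.0526, adjusted p = 0.00111, edgeR), and to 406 ± 5.27 CPM, against 339 ± 19 CPM, in APC-intact cells (0.26 ± 0.0526, adjusted p = 0.00294). Its call was kept under all 28 alternatives in both lines. Ccnl2 rose by 0.75 ± 0.154 in APC-deleted cells (adjusted p = 0.00581, edgeR), and the kinase gene Clk4, which acts on SR proteins, by 0.36 ± 0.0583 (adjusted p = 0.00053). Ccnl2 had 102, 174 and 114 CPM in APC-deleted 48 h replicates 1, 2 and 3, so it was highest in the replicate that stood apart. Ogt rose by 0.64 ± 0.172 in APC-intact cells (adjusted p = 0.0298), a call lost in 6 of 28 alternatives. In the additive run fit, with its 1 shared effect of 48 h, 1 gene of the list was called, and Ccnl2, Clk4 and Ogt were not. The APC-deleted count was 10 without 48 h replicate 2. The APC-intact count was 1 without 48 h replicate 1 or untreated replicate 2, and 5 to 8 without APC-deleted 48 h replicate 2, APC-deleted untreated replicate 3 or APC-intact 24 h replicate 2 or 3.

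Of 15 tested nuclear long noncoding RNAs other than the members, 1 rose in the APC-deleted and 4 in the APC-intact line at 48 h, and 0 fell. Over all genes tested 4.52% rose and 6.49% fell in the APC-deleted line, and 3.81% and 7.54% in the APC-intact line. The 1 of 15 in APC-deleted cells and the 0 that fell lie near those shares. Firre, listed as 6720401G13Rik, was the 1 in APC-deleted cells (0.57 ± 0.172, adjusted p = 0.039, edgeR), a call lost in 13 of 28 alternatives. The 4 in APC-intact cells were Tug1 (42.4 ± 2.19 CPM at 48 h, against 33.7 ± 2.11 CPM untreated; 0.33 ± 0.0859, adjusted p = 0.0174), Ftx, Hotair and the host gene A330023F24Rik, all far below Malat1 in level. In the additive run fit none of these was called. The APC-intact count was 1 or 2 without untreated replicate 1 or 2 or any 48 h replicate. Between the lines at 48 h 3 of the 15 were higher and 3 lower in APC-deleted cells, where 17.8% of all genes were higher and 16.8% lower. Tug1 and Ftx were among the lower (−0.55 ± 0.0864, adjusted p = 5.89e-05, and −0.46 ± 0.123, adjusted p = 0.00673), but unlike Malat1 they were also lower without doxycycline (−0.34 ± 0.0866, adjusted p = 0.00537, and −0.37 ± 0.125, adjusted p = 0.0321). Lncpint, listed as AB041803, was higher at 48 h (1.07 ± 0.31, adjusted p = 0.011).

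Over all 999 other long noncoding genes, 74 (7.41%) rose and 18 (1.80%) fell at 48 h in APC-deleted cells, and 55 (5.51%) rose and 13 (1.30%) fell in APC-intact cells. Among 12534 protein-coding genes 569 (4.54%) rose and 938 (7.48%) fell in APC-deleted cells, and 495 (3.95%) rose and 1096 (8.74%) fell in APC-intact cells. The median log2 difference of the long noncoding genes was 0.17 in the APC-deleted and 0.20 in the APC-intact line. Both 48 h comparisons cross the runs. Which class was called higher more often at 48 h depended on the libraries and setting used. Without APC-deleted 48 h replicate 2, 5.15% of long noncoding and 9.33% of protein-coding genes rose in APC-deleted cells. In APC-intact cells these were 7.35% and 8.93%. Without the pair of libraries they were 5.01% and 8.58% in APC-deleted and 7.42% and 8.79% in APC-intact cells. With only the groups compared they were 2.22% and 0.959%, and 13.6% and 15.3%. In APC-intact cells at 24 h, within run 1, 11 long noncoding genes (1.1%) rose and 6 fell. Of protein-coding genes 190 (1.5%) rose and 622 fell. In APC-deleted cells at 24 h, across runs, these were 12 (1.2%) and 6, and 291 (2.3%) and 551. At 24 h long noncoding genes were thus called higher less often than protein-coding ones. Their median log2 difference was then 0.12 in each line. The additive run fit, which also leaves out the interaction, called 6 long noncoding genes higher and 0 lower for the 1 effect of 48 h it gives both lines. The rises at 48 h in APC-deleted cells were 44, 18 and 28 without 48 h replicate 3, untreated replicate 1 and untreated replicate 2. In APC-intact cells they were 12 to 31 without 48 h replicate 1, 2 or 3 or untreated replicate 1 or 2. The falls at 48 h were 5 to 11 in APC-deleted cells without 48 h replicate 1 or 3 or any untreated replicate. They were 5 to 8 in APC-intact cells without 48 h replicate 1 or 3 or untreated replicate 1 or 2. Exported and snoRNA-host long noncoding RNAs, which are not held in the nucleus in the same way, moved too. Of 19 tested, 8 rose and 2 fell in APC-deleted and 4 rose and 2 fell in APC-intact cells. Over all genes the shares were 4.52% and 6.49%, and 3.81% and 7.54%. The list's median log2 difference was 0.33 in the APC-deleted and 0.24 in the APC-intact line. In each line 17 of the 19 were above 0. The medians of the nuclear long noncoding list were 0.18 and 0.22. Snhg1 rose by 0.60 ± 0.0797 in APC-deleted (adjusted p = 6.51e-05) and 0.40 ± 0.0793 in APC-intact cells (adjusted p = 0.00244), and both calls were lost in the additive run fit (adjusted p = 0.0515).

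**Figure D4:**
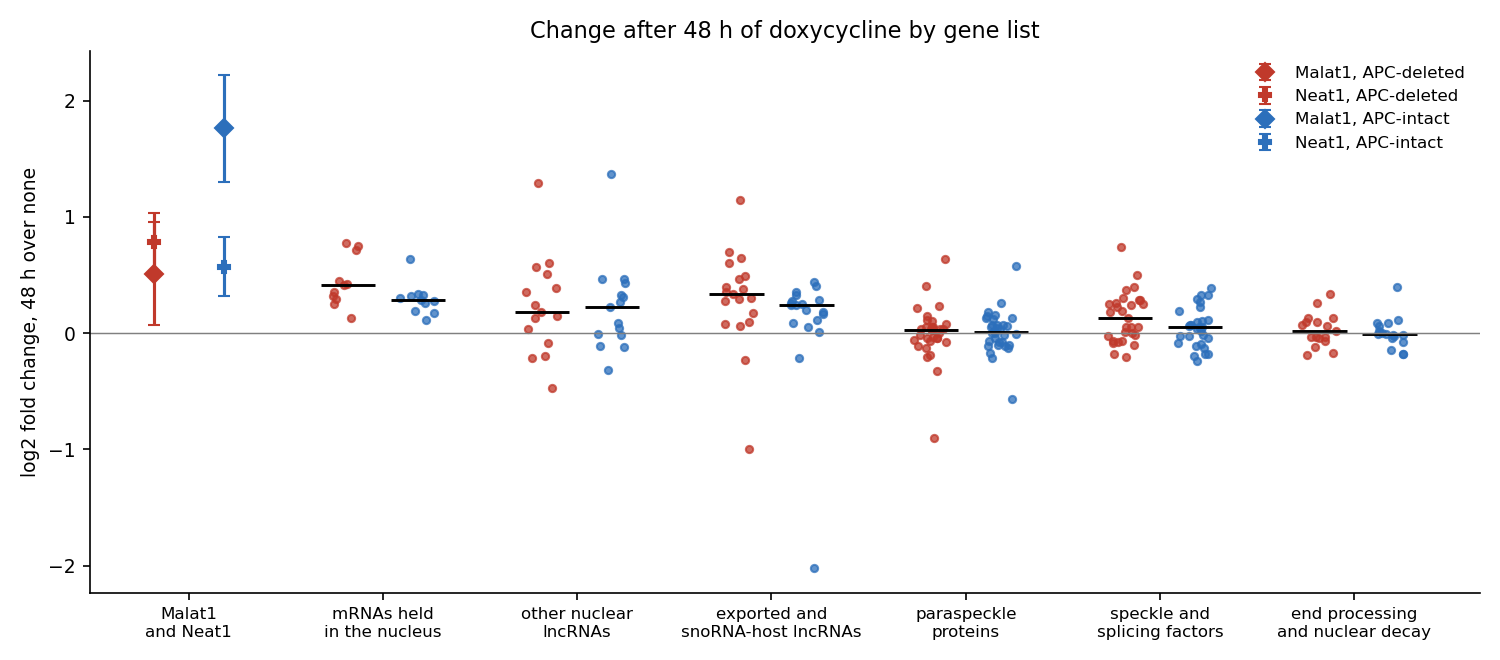
Log2 differences, 48 h doxycycline minus none, for each tested gene of the lists, APC-deleted left in red and APC-intact right in blue, with the list median as a black line and the members with SE bars. Malat1 in APC-intact cells (1.76) lies far above the medians of the nuclear lists, which are positive in both lines.

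Genes for the RNAs' protein partners were read next. Of 32 paraspeckle proteins tested, 2 rose and 2 fell at 48 h in each line, with a median log2 difference of 0.03 in the APC-deleted and 0.01 in the APC-intact line. These 2 of 32 in each direction lie near the shares of all genes (4.52% up and 6.49% down in the APC-deleted line, 3.81% and 7.54% in the APC-intact line). Pspc1, a core paraspeckle protein, fell in both lines, while Neat1 was above untreated cells in value. Pspc1 had 12.5 ± 0.239 CPM in APC-deleted 48 h cells, against 23.3 ± 3.01 CPM untreated (−0.90 ± 0.0886, adjusted p = 2.46e-06, edgeR). In APC-intact cells it had 17.02 ± 0.919, against 25.3 ± 0.986 CPM (−0.57 ± 0.0871, adjusted p = 0.000202). Pspc1 was already lower at 24 h, by −0.83 ± 0.0878 in APC-deleted (adjusted p = 9.85e-06) and −0.50 ± 0.0871 in APC-intact cells (adjusted p = 0.0015), in comparisons where 3.77% and 4.25% of all genes fell. Of the 32 genes 1 fell and 0 rose in APC-deleted and 2 fell and 1 rose in APC-intact cells at 24 h, when 2.08% and 1.39% of all genes rose. The 4 Pspc1 calls held under all 28 alternatives, while the other calls at 24 h, Rbm4b up and Fam98a down in APC-intact cells, were lost in 6 and 21 of them. At 48 h its partner Nono differed by −0.04 in the APC-deleted and −0.10 in the APC-intact line, without passing the test. Hnrnpk, which favours the long Neat1 isoform, differed by 0.06 in the APC-deleted and 0.07 in the APC-intact line, also without passing it. Cpsf6, whose complex favours the short isoform, rose in APC-intact cells (0.26 ± 0.0779, adjusted p = 0.0381), a call lost in 6 of 28 alternatives, and its complex partner Nudt21 differed by −0.04 in the APC-deleted and 0.06 in the APC-intact line. Rbm14, needed for paraspeckles, fell by 0.32 in the APC-deleted and 0.21 in the APC-intact line on the log2 scale, calls lost in 2 and 13 of 28 alternatives. Between the untreated lines 1 of the 32 was higher and 6 lower in APC-deleted cells, where 13.4% of all genes were higher and 13.8% lower. Sfpq was among the lower at no doxycycline (−0.30 ± 0.0689, adjusted p = 0.00246) and at 48 h (126 ± 7.98, against 185.6 ± 5.74 CPM; −0.56 ± 0.0691, adjusted p = 3.41e-06).

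Of 29 speckle and splicing factors, the proteins Malat1 lies beside, 8 rose and 2 fell in APC-deleted and 4 rose and 2 fell in APC-intact cells at 48 h, where 4.52% of all genes rose and 6.49% fell in the APC-deleted line, and 3.81% and 7.54% in the APC-intact line. Rbm25 rose by 0.37 ± 0.0653 in APC-deleted (adjusted p = 0.00103) and 0.29 ± 0.0652 in APC-intact cells (adjusted p = 0.00619), and both calls were lost in the additive run fit (adjusted p = 0.171). Of 17 factors of end processing and nuclear decay, 2 rose in APC-deleted cells, and 1 rose and 1 fell in APC-intact cells, beside those same shares. Zfc3h1, which hands nuclear polyadenylated RNA to the exosome, rose by 0.34 ± 0.0856 in APC-deleted (adjusted p = 0.0145) and 0.40 ± 0.0854 in APC-intact cells (adjusted p = 0.00497). Mettl16, which binds the Malat1 triple helix in human cells, differed by 0.13 in the APC-deleted and 0.09 in the APC-intact line without passing the test. Of 12 factors known to act on either gene, Arnt, the partner of the hypoxia-inducible factors, rose by 0.37 ± 0.0575 in APC-deleted (adjusted p = 0.000369) and 0.28 ± 0.0575 in APC-intact cells (adjusted p = 0.00385), calls likewise lost in that fit (adjusted p = 0.0609). The clock gene Arntl fell in APC-intact cells, and no other of the 12 was called at 48 h. Trp53, an activator of Neat1, differed by 0.02 in the APC-deleted and −0.11 in the APC-intact line, without passing the test. None of 24 replication-dependent histone genes, whose messengers also lack a poly(A) tail, rose or fell with doxycycline, while 6 were higher in untreated APC-deleted than in untreated APC-intact cells, where 13.4% of all genes were. Of 5 short noncoding RNAs, including Rpph1, the RNA of RNase P, that gene alone was called at 48 h, lower in APC-intact cells (−0.80 ± 0.218, adjusted p = 0.0234), a call also lost in the additive run fit.

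The genes around Malat1 and Neat1 were then read at the same time. Of the 20 nearest tested genes, 10 on each side, 0 were higher at 48 h in either line, and 2 were lower in the APC-deleted and 4 in the APC-intact line. Over all genes tested 4.52% rose and 6.49% fell in the APC-deleted line, and 3.81% and 7.54% in the APC-intact line. The 0 of 20 higher lies near those shares. The nearest tested gene beyond Neat1, Frmd8, differed by −0.13 ± 0.0721 in the APC-deleted and −0.12 ± 0.0730 in the APC-intact line. Pola2, a subunit of the primase complex, fell in APC-deleted (−0.22 ± 0.0490, adjusted p = 0.00641) and APC-intact cells (−0.27 ± 0.0491, adjusted p = 0.00139). Between the lines Frmd8 was higher in APC-deleted cells by 0.40 ± 0.0729 at 48 h (adjusted p = 0.00027), and by a like amount, 0.40, with no doxycycline and 0.37 at 24 h. In all, 4 of the 20 were higher and 6 lower at 48 h, where 17.8% of all genes were higher and 16.8% lower.

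**Figure D5:**
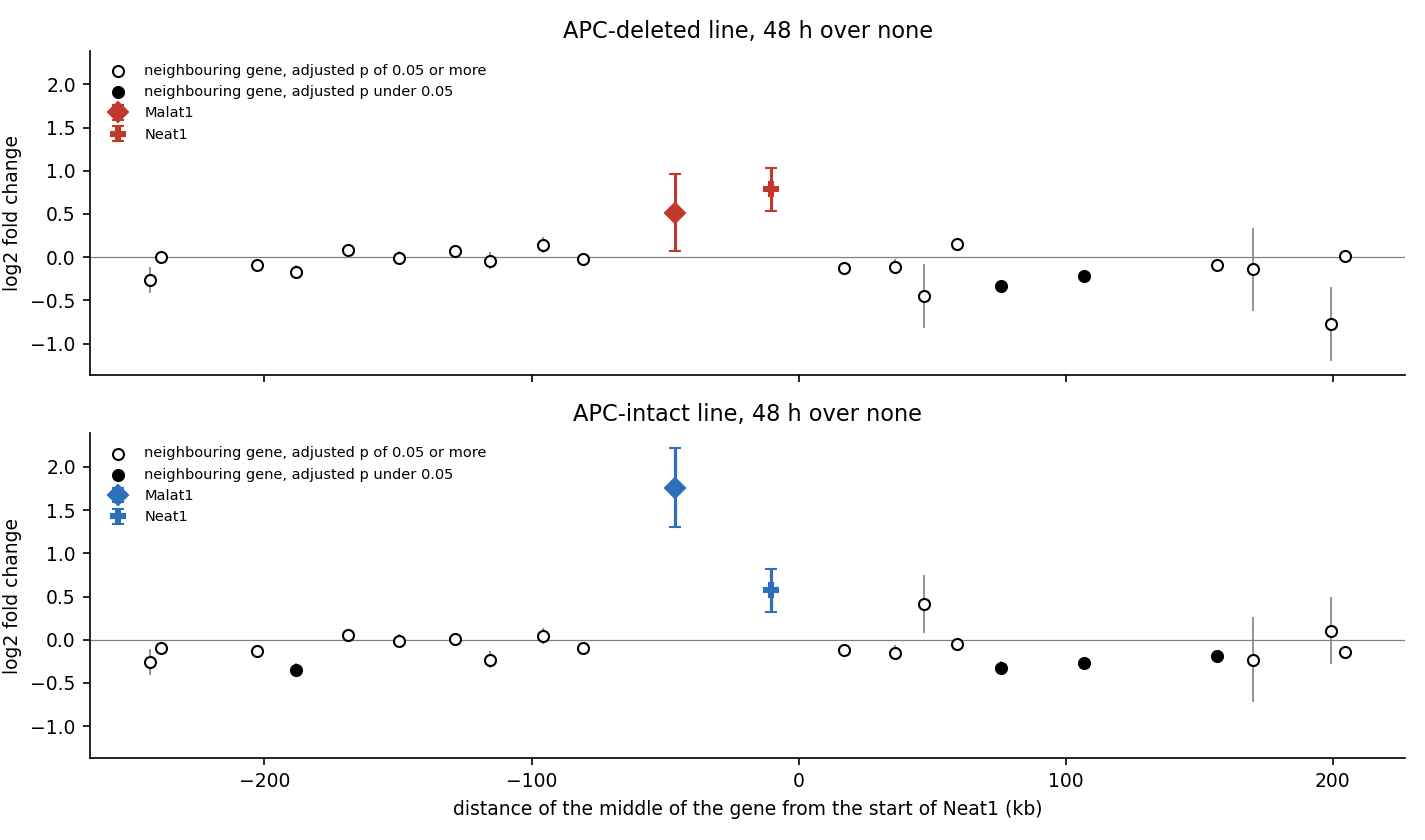
Log2 difference at 48 h (doxycycline minus none, with SE) of Malat1, Neat1 and the 10 nearest tested genes on each side, against the distance of the gene's middle from the start of Neat1 (kb), APC-deleted above and APC-intact below. Neighbours drawn as filled circles passed adjusted p of 0.05. No neighbour was called higher in APC-intact cells, where 3.81% of all genes were and Malat1 differed by 1.76.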

How the data were processed

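RNA-seq gene counts of 18 MC38 libraries were used as the authors deposited them, 1 file per library. Per the submitters' processing notes, the tools were STAR and HTSeq with mm10. Versions, annotation release, strand setting and the kind of RNA capture are not given in the sources used here, and the molecule is labelled total RNA. The deposited RPKM divide each count by the library total, entries that name no gene included, and were checked but not tested. Entries that name no gene (22.9 to 25.5% of a library) entered neither library sizes nor tests.

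Of 39179 genes 25225 had a count and 15006 passed filterByExpr by group. The test was edgeR 4.0.16's quasi-likelihood test (R 4.3.3, limma 3.58.1, TMM, robust) on the deposited counts of all 18 libraries by group, with Benjamini-Hochberg adjustment over all genes and a threshold of 0.05, in 11 comparisons. The biological coefficient of variation was 8.33%. Levels are TMM-scaled CPM, and log2 CPM used a prior count of 2. The fit was tested on simulated data with known changes.

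Groups came from the titles and the protocol, and runs from deposited file names. Replicates differed beyond counting noise in all 18 pairs (chi-square per degree of freedom 7.90 to 81.0). The 4 highest values, 50.0 to 81.0, each involve APC-deleted 48 h replicate 2 or APC-intact 24 h replicate 1 or 2. Malat1, Neat1 and the 13 gene lists were chosen with earlier results of these data known. Up to 4 called genes per list and comparison were eligible to be named, with the 5 genes most like each member and 10 neighbours on each side. Some of the genes this rule names are not reported here. Gene names for 16 list symbols came from GENCODE M21 by identifier. Alternatives were DESeq2 1.42.0, other scalings, no filter, only the groups compared, run in a fit additive in line, time and run (no interaction), a replicate block and left-out libraries. Numbers were handled with Python 3.11.15, numpy 2.4.6, pandas 2.3.3 and scipy 1.17.1, and drawn with matplotlib 3.10.9.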

Additional observations from a re-analysis of the deposited data

How the results depend on the processing

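Every Malat1 and Neat1 log2 difference kept its direction under DESeq2, other scalings and no filter. The additive run fit also leaves out the line-by-time interaction, so it gives both lines 1 value: for Malat1 0.95 at 48 h and, between the lines at any time, −0.43 (reversed for untreated cells), and for Neat1 0.88 at 48 h, 0.42 from 24 h to 48 h and 0.46 between the lines. Without the pair APC-deleted 48 h replicate 2 and APC-intact 24 h replicate 1 the Neat1 difference of 48 h responses reversed to −0.16. Correlations with the no-feature share were 0.73 (run 1) and 0.94 (run 2) for Malat1 levels and −0.081 (run 2, reversed) for Neat1 levels. Malat1 and Neat1 levels gave 0.77 (run 1) and −0.086 (run 2, reversed), and their deviations 0.87 without the pair. The cause of these shifts was not tested.

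Counts of genes called, all genes: with only the groups compared 2473 (24 h) and 433 (48 h) in the APC-deleted line, 258 and 4367 in the APC-intact line, 22 (APC-deleted) and 49 (APC-intact) for 48 h against 24 h, and 0 for the difference of 48 h responses. In the additive run fit 347 at 48 h (1 effect for both lines), 6601 between the lines and 134 for 48 h against 24 h. Without the pair 1564 and 3009 (24 h and 48 h APC-deleted), 2984 (48 h APC-intact), 221 (48 h against 24 h, APC-deleted) and 2 (difference at 48 h). DESeq2 called 1388 (24 h APC-deleted), 191 and 238 (48 h against 24 h, APC-deleted and APC-intact), 5 and 57 (differences at 24 h and 48 h). The last was 14 with no filter and 0 with upper quartile factors. Leaving out 1 library gave 428 to 1469 and 882 to 2816 (24 h and 48 h APC-deleted), 364 to 1308 and 822 to 2845 (APC-intact), 47 to 193 and 64 to 442 (48 h against 24 h, APC-deleted and APC-intact), 1 to 2 and 0 to 4 (differences).

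Lists at 48 h: nuclear-held messengers called higher in the APC-deleted line were 1 in the additive run fit and 4 to 10 over left-out libraries. For the APC-intact line they were 6 with DESeq2, 5 with the members and mitochondrial genes out of the scaling, 10 with only the groups compared, 1 in the additive run fit, 8 without the pair and 1 to 8 over left-out libraries. Nuclear long noncoding RNAs called higher in the APC-deleted line were 3 with DESeq2, 0 with library totals, with only the groups compared and in the additive run fit, and 0 to 2 over left-out libraries. For the APC-intact line they were 0 in the additive run fit and 1 to 4 over left-out libraries. All long noncoding genes with only the groups compared were 17 higher and 0 lower in the APC-deleted line, and 115 higher in the APC-intact line. In the additive run fit they were 6 higher and 0 lower for its 1 effect of 48 h. Over left-out libraries they were 18 to 82 higher and 5 to 21 lower for APC-deleted, 12 to 77 higher and 5 to 16 lower for APC-intact cells. Of 205 calls of named list genes none reversed, 63 were lost in the additive run fit and 0 with DESeq2.

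Over genes as a whole, replicate numbers did not pair the libraries. Deviations of same-numbered libraries had a median r of 0.02 (45 pairs of libraries, 4 over 0.1), against −0.02 for different numbers. Malat1 by itself was lowest in replicate 1 and highest in replicate 3 in every APC-deleted group and in untreated APC-intact cells. It did not follow that order in APC-intact cells at 24 h or 48 h. What the numbers stand for is not given in the sources used here. With a replicate block 6 nuclear-held messengers were called higher at 48 h in APC-intact cells, and 4 of the 205 calls were lost. With 3 libraries a group, the replicate spread of Malat1 and Neat1, not depth, limits what can be read from them. The run also coincides with treatment wherever treated and untreated cells are compared, except in APC-intact cells at 24 h.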
